A study of Mus musculus with 12 samples.

Results

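Class 3 semaphorins are secreted proteins that bind a neuropilin and signal through an A-type plexin, and this account follows 10 of their genes in C57MG cells, a mouse mammary epithelial line, after treatment with Rspo2, Wnt3a or both. The genes were the ligands *Sema3a*, *Sema3b*, *Sema3c*, *Sema3d*, *Sema3e* and *Sema3f*, the neuropilins *Nrp1* and *Nrp2*, and the plexins *Plxna1* and *Plxna2*. They were found by their gene symbol among the non-control spots of the arrays. The group was selected on a measured value of the same arrays: *Sema3c* had a large difference between the effect of Rspo2 with and without Wnt3a, so values of *Sema3c* are given as a description, with no test, and tests are given for the other 9 genes only. The 10 genes had 22 probes, of which 15 probes of 7 genes had enough signal to be tested; 15393 gene names had such a signal in all.

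The cells grew overnight and then received carrier protein (BSA), recombinant human Rspo2 at 100 ng/ml, recombinant mouse Wnt3a at 100 ng/ml, or Rspo2 plus Wnt3a at those doses, for 24 h in serum-free medium. RNA of 3 monolayers per treatment was hybridised to 12 one-colour Agilent whole mouse genome arrays. All groups were the same line, and p-values measure the spread between monolayers of this line. Signals are given as log2 values relative to the 75th percentile of the same array, so a value of 0 lies at that percentile; values of different probes are not comparable as amounts of RNA. "Called" means an adjusted p under 0.05 over all 22751 probes tested (limma, Benjamini-Hochberg) with a change of at least 2-fold.

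The label of the line was checked against marker genes. The basal keratin *Krt14* and the luminal keratin *Krt8* were well above background on all 12 arrays, but the epithelial adhesion genes *Cdh1* and *Epcam* were so on 0 and 2 arrays, *Krt5* and *Krt18* on 10 and 3, while all 5 mesenchymal markers (*Vim*, *Col1a1*, *Col1a2*, *Fn1* and *Cdh2*) were so on all 12. The summed linear level of the 6 epithelial markers, in units of the array's 75th percentile, lay between 10.1 and 10.6 with BSA, 9.64 and 12.2 with Rspo2, 15.2 and 16.9 with Wnt3a, and 22.5 and 25.8 with both. *Krt14* carried most of that sum, with a mean of 3.35 with BSA and 4.59 with both (log2), whereas the mean of *Krt8* was -3.51 with BSA and -4.66 with both and that of *Krt18* -5.33 and -6.53. The mesenchymal sum lay between 229.8 and 255 over all 12 arrays. The part of these marker levels in the results below was not tested. The arrays lay on 3 slides: all BSA arrays and Rspo2 replicate 1 on slide 1, the other Rspo2 arrays with Wnt3a replicates 1 and 2 on slide 2, and Wnt3a replicate 3 with all Rspo2 plus Wnt3a arrays on slide 3. BSA and the combination therefore shared no slide.

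Class 3 semaphorins were first known as guidance cues that repel growing axons, and they also act on endothelial, epithelial and tumour cells. Neuropilins bind the ligand but have a short cytoplasmic tail, so the signal into the cell passes through the plexin, which acts on small GTPases and the cytoskeleton. Neuropilins are also co-receptors for vascular endothelial growth factors (VEGFs). Wnt3a stabilises β-catenin, which works with Tcf/Lef factors on DNA, and R-spondins enhance that signal by keeping Wnt receptors at the cell surface.

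The 250 bases before an annotated start of *Sema3c*, *Sema3a* and *Nrp1* are shown because the results turn on probes of these genes. The sequences are from RefSeq on mouse build GRCm38.p6, plus strand, 5′ to 3′, in lower case with the core of the Tcf/Lef motif (CTTTGA or CTTTGT, either strand) in capitals. They lie at chr5:17574566-17574815 for *Sema3c*, chr5:13396534-13396783 for *Sema3a* and chr8:128358823-128359072 for *Nrp1*.
Sema3c: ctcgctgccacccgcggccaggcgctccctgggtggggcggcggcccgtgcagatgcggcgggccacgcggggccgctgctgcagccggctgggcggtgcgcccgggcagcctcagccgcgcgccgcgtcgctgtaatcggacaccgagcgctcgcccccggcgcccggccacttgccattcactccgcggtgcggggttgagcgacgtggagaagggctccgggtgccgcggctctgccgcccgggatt
Sema3a: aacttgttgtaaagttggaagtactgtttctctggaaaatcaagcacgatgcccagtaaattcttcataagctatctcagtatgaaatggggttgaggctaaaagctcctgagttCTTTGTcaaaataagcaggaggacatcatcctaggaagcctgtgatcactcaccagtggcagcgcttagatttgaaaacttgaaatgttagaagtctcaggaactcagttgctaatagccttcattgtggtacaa
Nrp1: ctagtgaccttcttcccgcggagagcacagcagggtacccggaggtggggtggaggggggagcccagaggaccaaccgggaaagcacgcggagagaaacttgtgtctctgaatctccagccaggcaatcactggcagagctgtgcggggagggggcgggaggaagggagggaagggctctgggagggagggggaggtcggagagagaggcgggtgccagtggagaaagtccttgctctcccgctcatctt
The *Sema3a* window held 1 match, 135 bases before the start, and the *Sema3c* and *Nrp1* windows held none. The *Sema3a* and *Nrp1* windows lie inside the annotated spans of these genes, chr5:13124822-13603485 and chr8:128358591-128505476. They thus precede a start within the gene and not the first base of its span. GC content was 78.4% for *Sema3c*, 40.8% for *Sema3a* and 64.4% for *Nrp1*, beside a median of 52.4% over all 32851 windows of this length. Windows were given for 7 of the 10 genes and 4 of these held a match (*Sema3a*, *Sema3d*, *Sema3e* and *Nrp2*), whereas 27.6% of all windows did. Such matches are letters only and no binding was measured here. *Sema3b*, *Sema3f* and *Plxna1* have no window here.

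*Sema3c*, a secreted ligand, was lower with Rspo2 alone and higher with Rspo2 plus Wnt3a. Its brighter probe (A_52_P87839) read 0.11, 0.17 and 0.35 with BSA, -0.60, -0.51 and -0.54 with Rspo2, 0.27, 0.06 and 0.33 with Wnt3a, and 1.29, 1.38 and 1.28 with both. The Rspo2 arrays lay below all others, the arrays of the combination lay above all others, and the BSA and Wnt3a arrays overlapped. The group means differed from BSA by -0.76 with Rspo2, 0.01 with Wnt3a and 1.11 with both (SE 0.09, n = 3 per group), the last a 2.16-fold higher signal. Adding Rspo2 thus went with a lower value in the absence of Wnt3a and with a value 1.10 higher in its presence, and the difference between those changes, the interaction, was 1.86 (SE 0.13). It was number 13 from the top among the 20436 probes well above background on all 12 arrays, which is how the gene came to be chosen.

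The dimmer *Sema3c* probe (A_52_P65351), which lies 150.6 kb from the first in the array's coordinates, gave the same order for Rspo2 but not the same levels. It read -0.71, -1.09 and -1.07 with BSA, -2.05, -1.97 and -1.62 with Rspo2, -1.69, -1.29 and -1.32 with Wnt3a, and -0.42, -0.68 and -0.56 with both. Here the Wnt3a arrays lay below the BSA arrays, by 0.48 on average, and the combination lay 0.40 above BSA, less than 2-fold. The Rspo2 difference was -0.92 without Wnt3a and 0.88 with it, and the interaction was 1.81 (SE 0.22). The probes thus differed in whether Wnt3a alone lay away from BSA and in how far the combination lay above it, while the interaction was 1.86 on one and 1.81 on the other. When the slide was fitted too, the combination against BSA was 0.88 for the brighter and -0.02 for the dimmer probe.

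**Figure D1:**
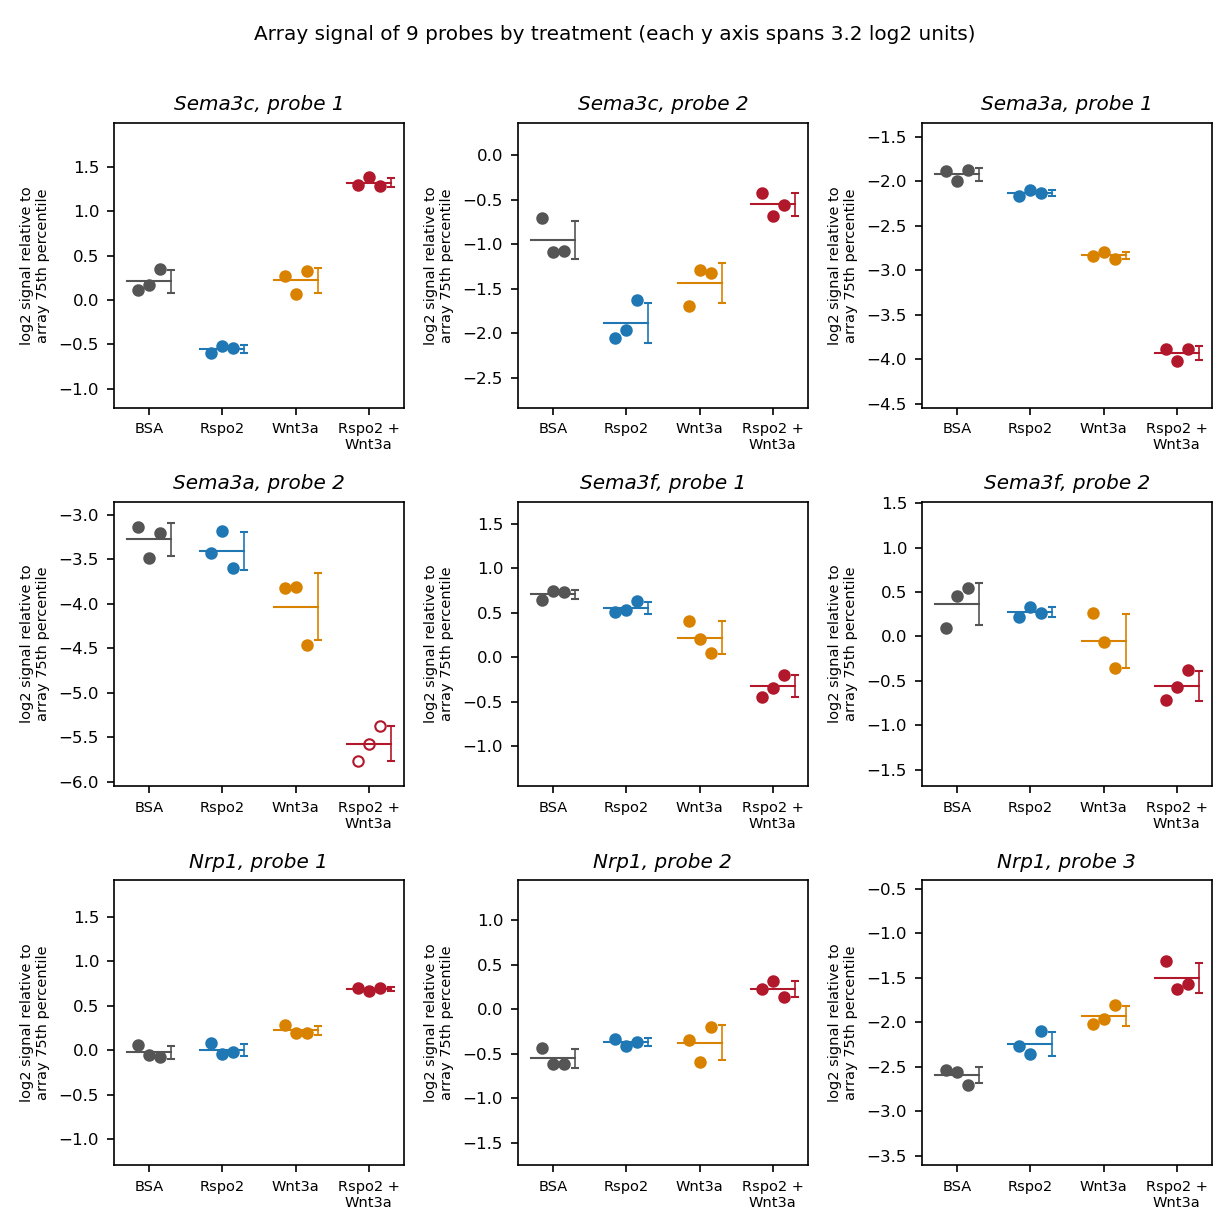
Signal of 9 probes on each of the 12 arrays (y axis, log2 relative to the array's 75th percentile; x axis, treatment). Points are arrays, filled where well above background; lines are group means and bars SD (n = 3). *Sema3c* is lowest with Rspo2 and highest with Rspo2 plus Wnt3a, *Sema3a* and *Sema3f* are lowest with the combination, and *Nrp1* is highest with it.

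*Sema3a*, the founding repellent ligand of the class, fell with Wnt3a and fell further with Rspo2 plus Wnt3a. Its brighter probe (A_51_P163146) read -1.89, -2.00 and -1.87 with BSA, -2.16, -2.09 and -2.13 with Rspo2, -2.84, -2.79 and -2.87 with Wnt3a, and -3.89, -4.01 and -3.88 with both. No arrays of different groups overlapped, and the order was BSA, Rspo2, Wnt3a and then the combination. The change from BSA was -0.91 with Wnt3a (adjusted p = 4.08e-05) and -2.01 with both (SE 0.07, adjusted p = 3.68e-08), a 4.02-fold lower signal, whereas that with Rspo2 alone, -0.21, had an adjusted p of 0.0639 and was 0.11 after normexp background correction. Whether the signal fell by fewer cells that hold the RNA or by less RNA per cell cannot be told apart in bulk RNA. Adding Rspo2 to Wnt3a lowered it by a further 1.09 (log2 change -1.09, adjusted p = 1.5e-05).

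The second *Sema3a* probe, 2.3 kb away, gave a like order with larger spread. It stood above background on each of the 9 arrays without the combination and on 0 of 3 arrays with it. Its values lay between -3.48 and -3.13 with BSA, -3.60 and -3.17 with Rspo2, -4.47 and -3.81 with Wnt3a and -5.77 and -5.38 with both. The combination was 4.75-fold lower than BSA and 2.81-fold lower than Wnt3a, with adjusted p of 1.09e-05 and 0.000979 from the fit. These folds are read against the lowest signal counted as above background on each array, or the probe's own reading where that was higher. They belong to the main processing and are no strict bounds. Over the other settings the changes were as small as -1.17 and -0.71 (log2). Those settings include normexp background correction, which adds an offset of 50 to each intensity. The mean intensity of this probe was 109 with BSA and 21.0 with both, so such an offset makes its changes smaller. The interaction of the brighter *Sema3a* probe was -0.89 (SE 0.10, adjusted p = 0.00107), so on this probe the signal fell more with Rspo2 in the presence of Wnt3a than without it. That of the second probe also passed (adjusted p = 0.0147), but it has no exact size because the combination was not well above background. Fitted with the slide as a further term neither passed (-0.81, adjusted p = 0.0509 for the brighter probe; adjusted p = 0.192 for the second). After normexp background correction the interactions, the changes with Wnt3a and those from Wnt3a to both did not pass on either probe, nor did the second probe's change from BSA to both (adjusted p = 0.209) or from Rspo2 to both (adjusted p = 0.145). The remaining probe, 104.2 kb away, was above background on 1 array and was not tested.

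*Sema3f*, a ligand that binds mainly neuropilin 2, fell with the combination. The brighter probe read 0.65, 0.74 and 0.74 with BSA, 0.50, 0.53 and 0.63 with Rspo2, 0.41, 0.20 and 0.04 with Wnt3a and -0.44, -0.34 and -0.19 with both. All arrays of the combination lay below all others, and the Rspo2 arrays lay just below the BSA arrays. The change was -0.49 with Wnt3a (adjusted p = 0.00544) and -1.04 with both (SE 0.10, adjusted p = 3.76e-05); with Rspo2 alone it was -0.15 (adjusted p = 0.309). The change with Wnt3a missed the threshold with the slide fitted (-0.48, adjusted p = 0.271) and after normexp background correction (-0.35, adjusted p = 0.227). The second probe, 0.6 kb away, gave -0.42 with Wnt3a (adjusted p = 0.0729) and -0.92 with both (SE 0.16, adjusted p = 0.00145), just under 2-fold. The interactions, -0.39 (adjusted p = 0.105) and -0.41 (adjusted p = 0.253), did not pass. Fitted with the slide, the change with both was -0.85 (adjusted p = 0.089) for the brighter and -0.54 (adjusted p = 0.494) for the second probe.

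The other 3 ligands gave little or no signal. *Sema3d*, on 1 probe, was well above background on 2 BSA, 2 Rspo2, 1 Wnt3a and 0 combination arrays, and was not tested because no group had it on all 3. It read -3.88, -4.69 and -4.44 with BSA, -4.37, -4.41 and -4.72 with Rspo2, -5.32, -5.20 and -4.56 with Wnt3a and -6.99, -7.22 and -7.13 with both, so the arrays of the combination lay below the others. Read against the lowest signal counted as above background, the combination lay 2.34-fold below the BSA mean. This is no strict bound, because BSA replicate 2 was itself not well above background. *Sema3b*, also on 1 probe, was above background on 1 BSA array and 2 combination arrays and on none of the Rspo2 or Wnt3a arrays. It read between -4.99 and -4.55 with BSA, -7.15 and -6.65 with Rspo2, -7.57 and -7.38 with Wnt3a, and -6.81 and -4.83 with both. The arrays of the combination overlapped those of BSA. All 3 probes of *Sema3e*, which unlike its relatives can bind plexin D1 without a neuropilin, were not well above background on any of the 12 arrays.

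**Figure D2:**
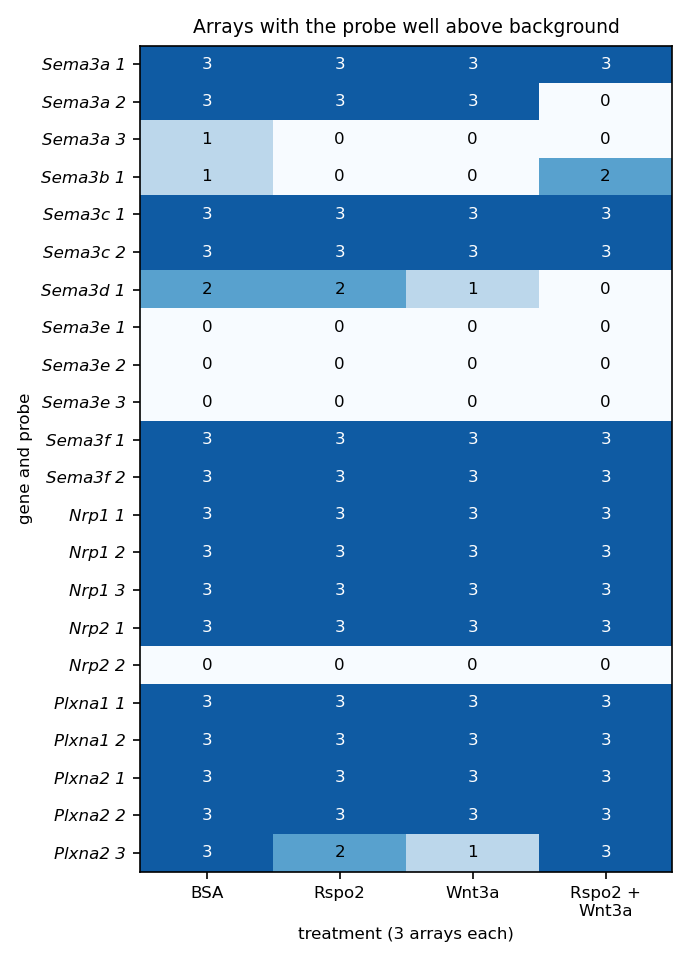
Number of arrays, of 3 per treatment (x axis), on which each of the 22 probes (y axis) was flagged well above background. *Sema3e* and the second *Nrp2* probe are at 0 throughout, and *Sema3a* probe 2 and *Sema3d* reach 0 with Rspo2 plus Wnt3a.

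*Nrp1*, the main receptor for *Sema3a* and a co-receptor for VEGF-A, rose with Rspo2 plus Wnt3a on all 3 of its probes. The brightest read 0.06, -0.05 and -0.08 with BSA, 0.08, -0.04 and -0.02 with Rspo2, 0.29, 0.19 and 0.20 with Wnt3a and 0.70, 0.66 and 0.70 with both. The BSA and Rspo2 arrays overlapped, the Wnt3a arrays lay above them, and the combination lay above all. The change was 0.25 with Wnt3a (adjusted p = 0.0223) and 0.71 with both (SE 0.07, adjusted p = 3.99e-05), a 1.63-fold higher signal, and adding Rspo2 to Wnt3a raised it by 0.46 (adjusted p = 0.00412). The change with Wnt3a alone missed the threshold after normexp background correction (0.33, adjusted p = 0.148), with the percentile taken over probes above background on all arrays (0.13, adjusted p = 0.209), with the slide fitted (0.38, adjusted p = 0.256), and without BSA replicate 2, BSA replicate 3 or Wnt3a replicate 1 (adjusted p between 0.0684 and 0.0792). After normexp, the change from Wnt3a to both missed it too (0.39, adjusted p = 0.379).

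The second *Nrp1* probe, 34.4 kb away, lay between -0.62 and -0.43 with BSA, -0.42 and -0.33 with Rspo2, -0.59 and -0.20 with Wnt3a and 0.14 and 0.31 with both, a change of 0.78 with the combination (SE 0.10, adjusted p = 0.000277). The dimmest, 142.6 kb away and on a cDNA clone sequence, lay between -2.70 and -2.54, -2.36 and -2.10, -2.02 and -1.81, and -1.63 and -1.31 in the same order. It was the only *Nrp1* probe to reach 2-fold, with 1.09 (SE 0.11, adjusted p = 3.76e-05), and the only member probe tested whose change with Rspo2 alone passed the adjusted p, at 0.36 (adjusted p = 0.0465). That change missed the threshold in 15 of 20 settings and was as small as 0.13. Among them were leaving out any of the 6 BSA or Rspo2 arrays, normexp background correction, the slide fitted and a block by replicate. The *Nrp1* interaction was 0.43 (adjusted p = 0.0284), 0.42 (adjusted p = 0.0896) and 0.07 (adjusted p = 0.788) from the brightest to the dimmest probe, so the probes did not share it. With the slide fitted, the change with both was 0.87 (adjusted p = 0.0326), 0.57 (adjusted p = 0.255) and 0.88 (adjusted p = 0.134), and that from Wnt3a to both 0.49 (adjusted p = 0.0562) on the brightest probe. After normexp background correction the dimmest probe's change with both was 0.63 (adjusted p = 0.306). The interaction of the brightest probe missed the threshold without any 1 of 8 arrays (all 3 BSA, Rspo2 replicates 2 and 3, Wnt3a replicate 2, and combination replicates 2 and 3), with adjusted p between 0.0503 and 0.072.

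*Nrp2*, the receptor that *Sema3f* prefers, showed no change past the threshold. Its bright probe read 4.98, 4.82 and 4.75 with BSA, 4.91, 4.94 and 4.95 with Rspo2, 4.70, 4.97 and 4.80 with Wnt3a and 4.76, 4.65 and 4.56 with both. These groups overlapped except that the combination lay below Rspo2 alone. The combination differed from BSA by -0.19 (95% interval -0.39 to 0.01, adjusted p = 0.124), which leaves room for a small fall. That value depended on the scaling: it was -0.47 (adjusted p = 0.00168) after quantile normalisation and -0.30 (adjusted p = 0.0125) with the percentile taken over probes above background on all arrays. The second *Nrp2* probe, 2.6 kb away and on a RefSeq transcript, was not well above background on any array. The bright probe is on a cDNA clone sequence, and the *Nrp2* result rests on it alone.

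Of the 5 plexin probes, 1 passed in 1 comparison. *Plxna1*, a signalling partner of both neuropilins, read 0.88, 0.99 and 1.15 with BSA, 0.53, 0.70 and 0.67 with Rspo2, 1.30, 1.06 and 0.58 with Wnt3a and 1.08, 1.26 and 1.63 with both on its brighter probe. The Rspo2 arrays lay below the BSA arrays and below the arrays of the combination, and Wnt3a overlapped all groups. The combination was 0.69 higher than Rspo2 alone (SE 0.18, adjusted p = 0.025), and none of the other comparisons passed; its change from BSA was 0.32 (95% interval -0.08 to 0.72). That difference from Rspo2 missed the threshold without any 1 of 5 arrays (the 3 Rspo2 arrays and combination replicates 2 and 3), with adjusted p between 0.0567 and 0.0926. The second *Plxna1* probe, 2.7 kb away, differed from Rspo2 by 0.21 (95% interval -0.19 to 0.62, adjusted p = 0.466) and passed in no comparison. The *Plxna1* interaction was 0.72 (SE 0.26, adjusted p = 0.097) on the brighter and 0.41 (SE 0.26, adjusted p = 0.316) on the second probe. *Plxna2*, a further A-type plexin, had 3 tested probes and none passed in any of the 6 comparisons. Their changes with the combination were -0.26, -0.21 and -0.25, with 95% intervals from -0.69 to 0.26 at the widest.

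**Figure D3:**
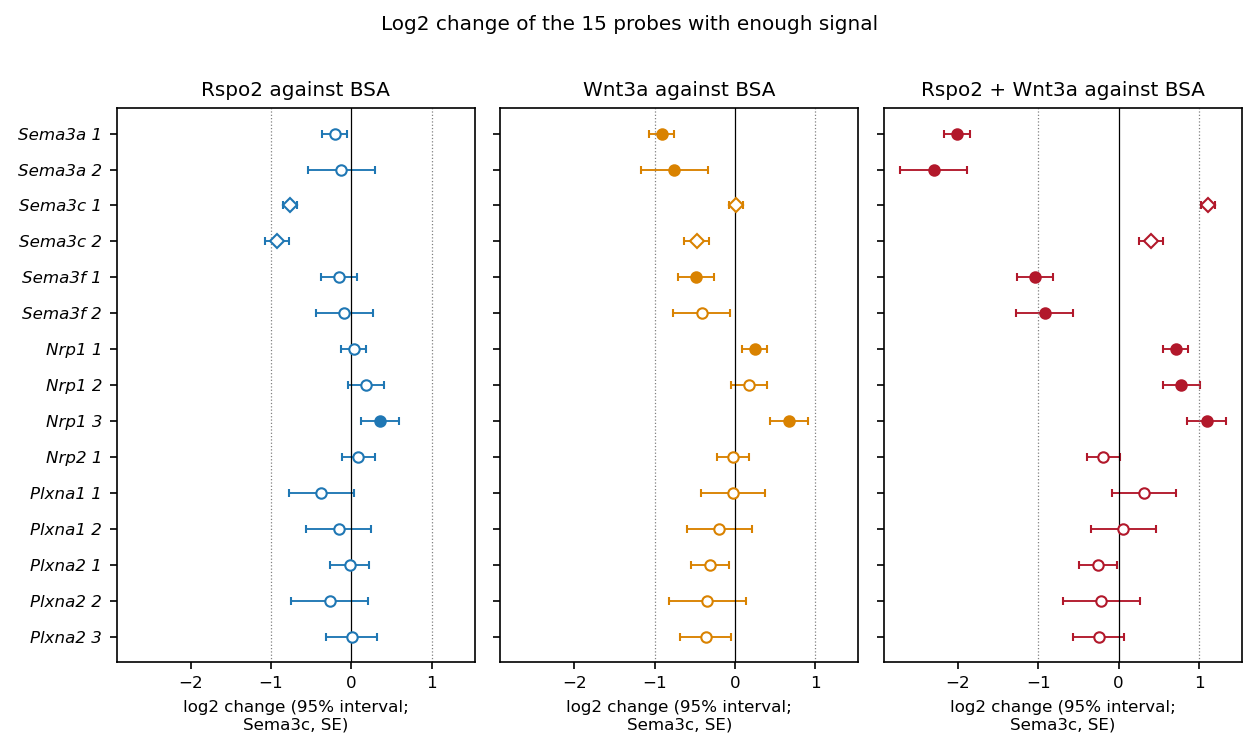
Log2 change from BSA (x axis, with 95% intervals from the fit, or SE for *Sema3c*) of the 15 tested probes (y axis) for each treatment. Filled circles passed an adjusted p of 0.05, diamonds are *Sema3c*, which was not tested, and dotted lines mark 2-fold. With the combination, *Sema3a* and *Sema3f* lie left of 0 and *Nrp1* right of it. The second *Sema3a* probe was not well above background with the combination, so its place there is no exact size.

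Over the 13 tested probes of the 9 genes other than *Sema3c*, which cover 6 genes, 0 were called with either protein alone. With Rspo2, 0 were called, and 1 passed the adjusted p alone, beside 0.721% and 16.8% of all probes tested. With Wnt3a, 0 were called and 5 passed the adjusted p, 2 higher and 3 lower, beside 2.52% and 31.5%. With the combination 4 were called, both *Sema3a* probes and a *Sema3f* probe lower and a *Nrp1* probe higher, and 7 passed the adjusted p, beside 5.08% and 39.2%. The median change of these 13 probes with the combination was -0.21, beside 0.04 over all probes tested. Probes of a gene are not separate replicates, and the probes called came from 3 genes. With the slide fitted, 2 were called (both *Sema3a* probes), and after normexp background correction 1 (the brighter *Sema3a* probe, -1.46, adjusted p = 0.0202). *Sema3a* was thus the gene whose fall with the combination was called under both.

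Adding Rspo2 to Wnt3a, 2 of the 13 were called, both of *Sema3a* and both lower, and 5 passed the adjusted p, beside 0.747% and 4.27% of all probes. Adding Wnt3a to Rspo2, 2 were called, again the *Sema3a* probes, and 8 passed, beside 2.67% and 16.5%. For the interaction 1 was called, the second *Sema3a* probe, which was not well above background with the combination, and 3 passed, beside 1.93% and 8.9%. The comparisons share arrays, so these counts are not independent of one another.

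**Figure D4:**
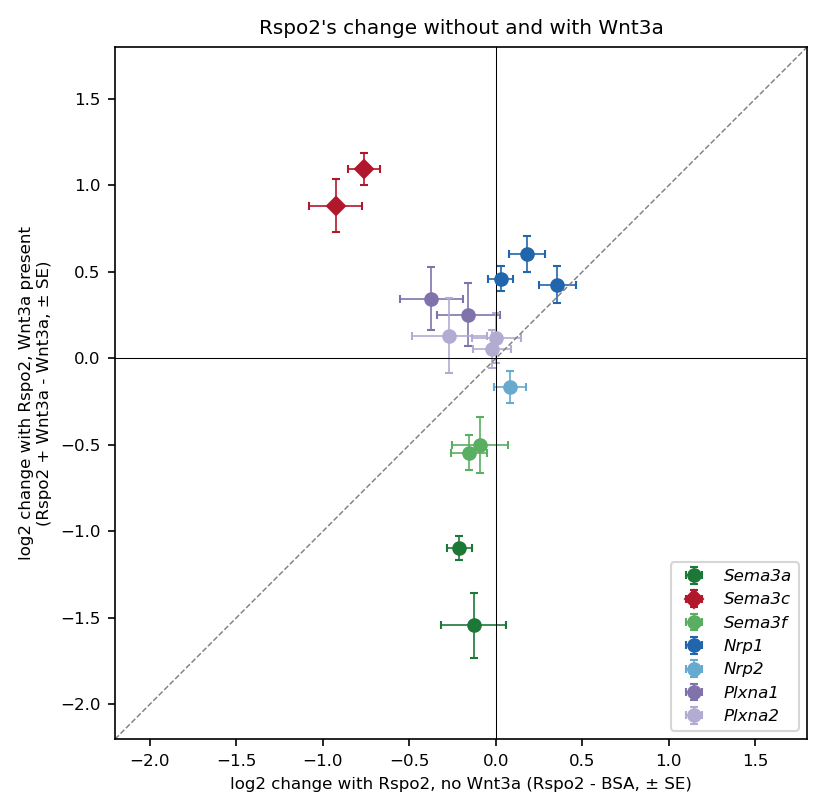
Log2 change of the 15 tested probes with Rspo2 in the absence of Wnt3a (x axis) and in its presence (y axis), with SE from the fit; the dashed line marks equal changes. The *Sema3c* probes, whose gene was chosen for this difference, lie left of 0 on the x axis and above 0 on the y axis. Both *Plxna1* probes have the same signs at smaller size (-0.37 and 0.34 on the brighter, -0.16 and 0.25 on the second). So do the first and second *Plxna2* probes. The *Sema3a* probes lie near 0 on the x axis and below -1 on the y axis.

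Because slides and treatments overlapped only in part, the members were also compared within each slide, where a group had 1 to 3 arrays. On slide 1, Rspo2 differed from BSA by -0.81 and -1.09 for the *Sema3c* probes and by -0.24 and -0.16 for the first *Sema3a* probes. On slide 2, Wnt3a differed from Rspo2 by 0.70 and 0.30 for *Sema3c* and by -0.70 and -0.42 for *Sema3a*. On slide 3, the combination differed from Wnt3a by 0.99 and 0.77 for *Sema3c*, by -1.05 and -1.11 for *Sema3a*, by -0.37 and -0.20 for *Sema3f* and by 0.49, 0.42 and 0.31 for *Nrp1*. Each of these had the sign of the difference over all arrays. On slide 3 these differences were smaller within the slide than over all arrays, except on the brightest *Nrp1* probe. The plexin probes did not all keep their sign. The second *Plxna1* probe differed by 0.17 on slide 1, beside -0.16 over all arrays. On slide 3 it differed by -0.17, beside 0.25 over all arrays. Small differences of *Plxna2* probes also changed sign.

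**Figure D5:**
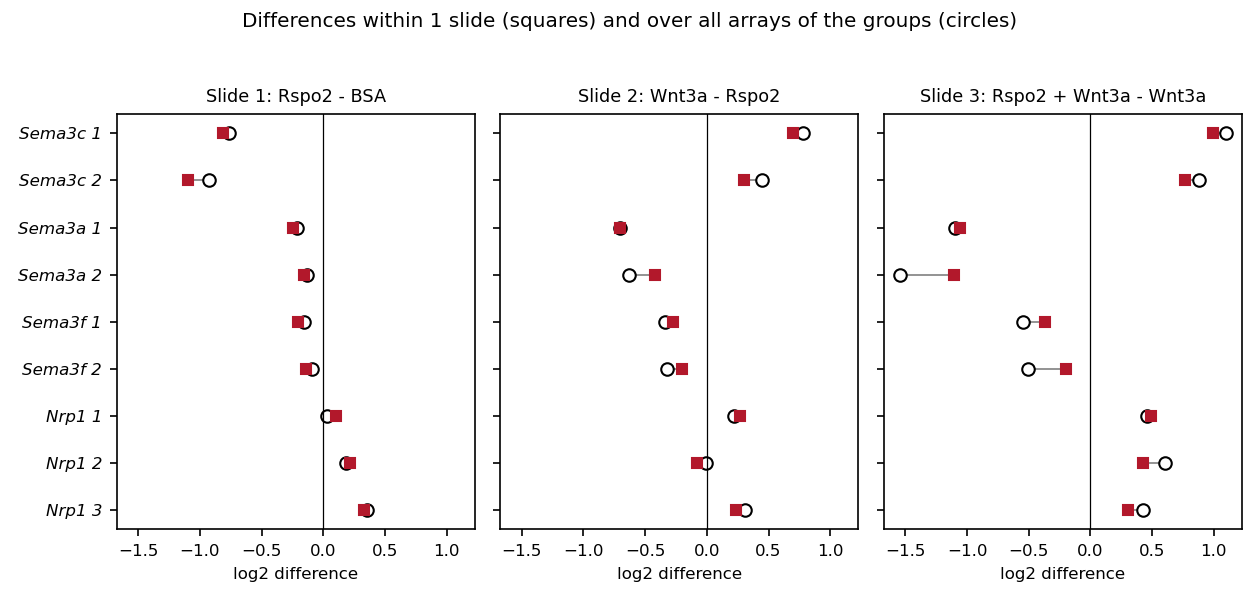
Log2 difference (x axis) between treatments within a slide (squares) and over all arrays of the same groups (circles) for 9 probes (y axis). Squares and circles lie on the same side of 0 for each probe, the second *Nrp1* probe on slide 2 being near 0; the widest gap is that of the second *Sema3a* probe on slide 3.

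The remaining genes of the pathway were read from lists of related genes, by the brightest tested probe of each. Of 4 further class 3 ligands and receptors, only *Plxna3* was tested, another A-type plexin, and it fell with the combination by 1.03 on the log2 scale (SE 0.14, adjusted p = 0.000372). Its values lay between -0.59 and -0.51 with BSA and between -1.84 and -1.30 with both, and it also passed with Rspo2 (-0.68, adjusted p = 0.0192) and Wnt3a (-0.80, adjusted p = 0.00291). With the slide fitted the change with both was -0.60 (adjusted p = 0.411).

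A list of other semaphorins and plexins had 13 tested genes. It included *Plxdc1*, a plexin domain gene that is not of these classes (-0.77 with both, adjusted p = 0.00303). With the combination 1 of the 13 was higher and 5, *Plxdc1* among them, were lower past the adjusted p. Of these lower genes 2 were called, beside 39.2% passing and 5.08% called over all probes. Both were B-type plexins, receptors of semaphorins of other classes. *Plxnb1* fell by 1.08 (log2, adjusted p = 0.00174). *Plxnb3* was well above background on all 3 BSA arrays and on none with Wnt3a or with both, and its fall with both passed (adjusted p = 0.000126). Read against the lowest signal counted as above background it was 2.26-fold lower with both than with BSA. This is no strict bound, as its change was as small as -0.84 (log2) in another setting. *Sema6d*, a transmembrane semaphorin, fell by 1.03 when Wnt3a was added to Rspo2 (adjusted p = 0.000586). With the slide fitted, *Plxnb1* (-0.52, adjusted p = 0.528) and *Sema6d* no longer passed, and after normexp background correction none of these 3 did. The list's median change with the combination was -0.45, beside 0.04 over all probes tested.

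Of 6 tested VEGF ligands and receptors, 2 passed lower and none higher with the combination, beside 39.2% of all probes. *Flt1*, which encodes VEGF receptor 1, read between 1.32 and 1.58 with BSA, 1.01 and 1.25 with Rspo2, 0.61 and 0.78 with Wnt3a and -0.01 and 0.08 with both, with no overlap, and fell by 1.41 (SE 0.09, adjusted p = 1.79e-06). The summed level of 4 endothelial markers (*Cdh5*, *Kdr*, *Pecam1* and *Tek*) lay between 2.43 and 2.60 with BSA, 1.85 and 1.89 with Rspo2, 1.66 and 1.87 with Wnt3a and 1.63 and 1.75 with both; *Cdh5* was well above background on all 12 arrays, with a mean of 1.30 with BSA and 0.75 with both (log2), and *Pecam1* and *Tek* on 1 each. The part of these markers in the *Flt1* result was not tested. *Kdr*, the VEGF receptor that pairs with neuropilin 1, was not well above background on any array. Of 18 tested cytoplasmic mediators and co-receptors, which include collapsin response mediator proteins and MICAL enzymes, 4 passed higher and 2 lower with the combination, beside the same 39.2%, and 0 were called there or in any of the other comparisons.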

How the data were processed

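RNA of 12 C57MG monolayers, 3 per treatment, had been labelled with a single dye and hybridised to Agilent 4-array slides; per the file headers, Feature Extraction 9.5.3.1 gave each spot a background-corrected intensity. The deposited files used here hold these intensities of 41174 probes on 43379 non-control spots per array. The authors' own table, used as an alternative, holds the intensity scaled to the 75th percentile, a linear ratio deposited per array. The 10 genes and the related gene lists were chosen with earlier results of these data known.

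Processed intensities were divided by the 75th percentile of their array and log2 transformed. Spots with outlier or non-uniformity flags were dropped (1327 values), and no spot was saturated. Probes flagged well above background throughout at least 1 group of 3 arrays were tested (22751 probes). A linear model of 4 group means was fitted in limma 3.58.1 (R 4.3.3), with 6 comparisons: each treatment against BSA, the combination against each protein, and the interaction. P-values were adjusted by Benjamini-Hochberg over all tested probes; called probes passed 0.05 with at least 2-fold. Where a probe was not well above background on any array of a group, the fold uses the lowest signal flagged so on each array. The probe's own reading was used where it was higher. Such a fold belongs to the main processing and is no strict bound. The fit was also run on simulated arrays with known changes and independent noise. Those arrays held no slide effect, so that run cannot speak to the slides. All probes of the 10 genes are named, the list genes by a rule (called in at least 1 comparison, at most 4 a list), and 5 neighbours of *Sema3c* by likeness of pattern. *Plxdc1* is named outside that rule because its class differs from that of its list. A search by RefSeq accession found 0 further probes of the 10 genes. The build of the arrays' coordinates is not given in the sources used here, so these gave distances only. The 75th percentile of intensity lay between 774 and 1146, and 51.3% to 64.2% of probes were well above background; precision is limited by 3 arrays per group. The numbers of the replicates were not taken as pairs: residuals of same-numbered arrays correlated between -0.412 and 0.272. Alternatives covered background, scaling, filters, spot flags, the methods' t-test, the block by replicate or slide, and leaving out each array. Normexp background correction used an offset of 50 in intensity, which makes the log2 changes of dim probes smaller.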

Additional observations from a re-analysis of the deposited data

Results flagged for a closer look

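Rspo2 acted differently without and with Wnt3a, by the test of the interaction, on 3 probes. For *Sema3a* it was -0.89 (log2, adjusted p = 0.00107) on the brighter and -1.42 (adjusted p = 0.0147) on the second probe, which is no exact size because the combination was well above background on 0 of 3 arrays, and for *Nrp1* 0.43 (adjusted p = 0.0284) on the brightest probe only. With the slide fitted none of the 3 passed (adjusted p = 0.0509, 0.192 and 0.251), after normexp background correction none did either, and the *Nrp1* interaction missed the threshold in 12 of 20 settings, the replicate block (adjusted p = 0.0597) among them. *Sema3c*, chosen for its interaction, moved in opposite directions. Rspo2 gave -0.76 without and 1.10 with Wnt3a on the brighter probe, and -0.92 and 0.88 on the dimmer probe. For *Sema3c* the difference was not tested here, because it had chosen the gene.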

How the results depend on the processing

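Of the 13 tested probes outside *Sema3c*, the counts called under 28 planned settings and 1 chosen after seeing the data are compared here. Without the 2-fold requirement the counts were 1 with Rspo2, 5 with Wnt3a, 7 with both, 5 for the combination against Wnt3a, 8 against Rspo2 and 3 for the interaction, in place of 0, 0, 4, 2, 2 and 1. Normexp background correction left 1 with both, 0 against Wnt3a, 1 against Rspo2 and 0 for the interaction; all probes called on the array fell from 1155 to 335 with both and from 438 to 3 for the interaction. After normexp, Rspo2 replicate 2 spread around its group mean with an SD of 0.744, the other arrays with 0.093 to 0.408; without it, chosen after seeing the data, the counts were 2 with both, 0 against Wnt3a, 1 against Rspo2 and 0 for the interaction. Slide as a term gave 2 with both and 0 for the interaction. Keeping only probes above background on all 12 arrays gave 1 against Wnt3a, 1 against Rspo2 and 0 for the interaction, because the second *Sema3a* probe is then left out; with no filter the interaction count was 0 and after quantile normalisation 2. The 75th percentile over probes above background on all arrays gave 1 with Wnt3a. The methods' t-test, adjusted, called 0 against Wnt3a. Leaving out each array gave 2 to 5 with both (2 without combination replicate 1), 2 to 2 against Wnt3a and Rspo2, 1 to 1 for the interaction and 0 to 0 with either protein alone. The replicate numbers did not pair the arrays; with a replicate block the counts with both stayed at 4, and the interaction of *Nrp1* (adjusted p = 0.0597), its dimmest probe with Rspo2 (0.0851) and *Plxna1* against Rspo2 (0.0549) missed the threshold. The fall of the brighter *Sema3a* probe with both passed in all 20 settings run for single probes, between -2.12 and -1.46, and the *Sema3c* interaction lay between 1.75 and 1.97 on the brighter and 1.15 and 1.93 on the dimmer probe. In these settings no change of a tested member past the threshold turned its sign. The median change of all probes reached -0.17 (interaction, normexp). Probes near background are limited by signal, not by the number of arrays alone.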

Other observations

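The 5 genes whose mean changes from BSA with Rspo2, Wnt3a and both were closest to those of *Sema3c*, by root mean square difference over these 3 changes among 13118 genes well above background on all 12 arrays, were *Arhgdib* (0.219 log2 units), *4732460K03Rik* (0.256), *9830144P21Rik* (0.304), *Cyp3a13* (0.306) and *Fndc1* (0.327). *Fndc1*, which encodes a fibronectin domain protein, changed by -0.21, -0.09 and 1.06 in that order. These changes share the BSA arrays, so this likeness is a description. In all 5 the Rspo2 change was smaller in size than that of *Sema3c*, -0.76.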
